A study of Mus musculus with 96 samples.

Results

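The stomach was one of 16 tissues in which mice lacking Scx were compared with wild-type mice by bulk RNA-seq. Its members are the 6 stomach libraries of 96 in the series, 3 labelled wild type and 3 labelled Scx-/-, chosen by the tissue and genotype in the sample labels. All mice were 3 weeks old. Scx-/- denotes loss of both copies of Scx, and no tissue-specific driver is named. Neither the labels nor the methods used here give the Scx allele, the genetic background, the sex of the mice or the part of the stomach taken, and no label ties a library to an animal. The p-values therefore cover the spread between libraries, which may be partly technical. In RNA from whole tissue, fewer cells of a type and less RNA per cell cannot be told apart.

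Scx encodes scleraxis, a basic helix-loop-helix transcription factor of tendon and ligament cells and their progenitors. The mouse stomach has a keratinized squamous forestomach and a glandular part, in which surface mucous cells secrete gastrokines and trefoil factors, parietal cells secrete acid, chief cells secrete pepsinogen, and scattered endocrine cells secrete ghrelin, somatostatin, gastrin and histamine. Smooth muscle and connective tissue surround this epithelium, and the tail of the pancreas lies against the stomach wall.

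The wild-type libraries held 440561, 334289 and 303011 counts and the Scx-/- libraries 700065, 371735 and 308093. Between 9125 and 11784 genes had a count in a library, and the 10 most abundant genes took 21.8% to 31.8% of the counts. Pearson correlations of log2(CPM + 1) were 0.799 to 0.856 between libraries of a genotype and 0.798 to 0.864 between genotypes, so genotype did not set the libraries apart as wholes. Xist, expressed from the inactive X chromosome of females, had 259, 0 and 241 counts in the wild-type libraries and 497, 0 and 0 in the Scx-/- libraries. The Y-linked genes Ddx3y, Eif2s3y, Kdm5d and Uty together had 0, 43 and 0 counts against 1, 99 and 62. By these genes the genotypes were not matched for sex.

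Levels are given in CPM, which scales each count by the total of its library, and fold changes come from the edgeR fit. Defining transcripts of the labelled organ were abundant in all 6 libraries. Atp4a, the catalytic subunit of the gastric proton pump, had 8226, 7643 and 10260 CPM in wild type and 7419, 9668 and 8134 CPM in Scx-/- mice, with a log2 fold change of −0.07 ± 0.14 (SE). Tff1, a trefoil factor of surface mucous cells, had a log2 fold change of −0.21 ± 0.20. Krt13, a keratin of internal squamous epithelia, had 327 CPM or more in each library.

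The targeted gene gave little information in this organ. Scx had 0, 0 and 3 counts in the wild-type libraries and 0 in each Scx-/- library, with an adjusted p of 0.797 (edgeR). Its loss was not detectable at this depth, because 0 counts in a group allow up to 3. Members of a tendon lineage list were also scarce. The 10 members with a count took 0.00389% to 0.0168% of the counts in wild-type and 0.00942% to 0.0211% in Scx-/- libraries, and none of them was called. Tnmd and Mkx had no count in any of the 6 libraries.

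The comparison between genotypes asked which genes of the stomach differ when Scx is lost. It gave 9 differentially expressed genes at an adjusted p under 0.05 (edgeR quasi-likelihood test), 0.0609% of the 14770 genes with a count. The 7 genes that rose, 0.0474% of all, included Try5, Amy2b, Pnlip and Sycn, which are genes of the exocrine pancreas, the hormone gene Ghrl, and the metallothionein gene Mt2. The 2 genes that fell, 0.0135% of all, were the gastrokine gene Gkn1 and the beta-globin gene Hbb-bs. At the thresholds the study used, an unadjusted p under 0.05 and a fold change above 2 in either direction (a log2 fold change beyond 1), 489 genes (3.31%) differed, 299 higher (2.02%) and 190 lower (1.29%). An unadjusted p under 0.05 alone was reached by 545 genes (3.69%), 330 of them higher (2.23%) and 215 lower (1.46%). The levels of 737 genes (4.99%) were higher in every Scx-/- library than in any wild-type library, and those of 431 (2.92%) were lower, which is called no overlap here. The median log2 fold change of all genes tested was 0.14.

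These calls depended on how the counts were modelled. DESeq2 called 2 genes, Try5 and Pnlip, and edgeR called none among the 5475 genes kept by filterByExpr, where 209 genes had an unadjusted p under 0.05. Without wild-type replicate 2 a single gene was called, and it was none of the 9.

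**Figure D1:**
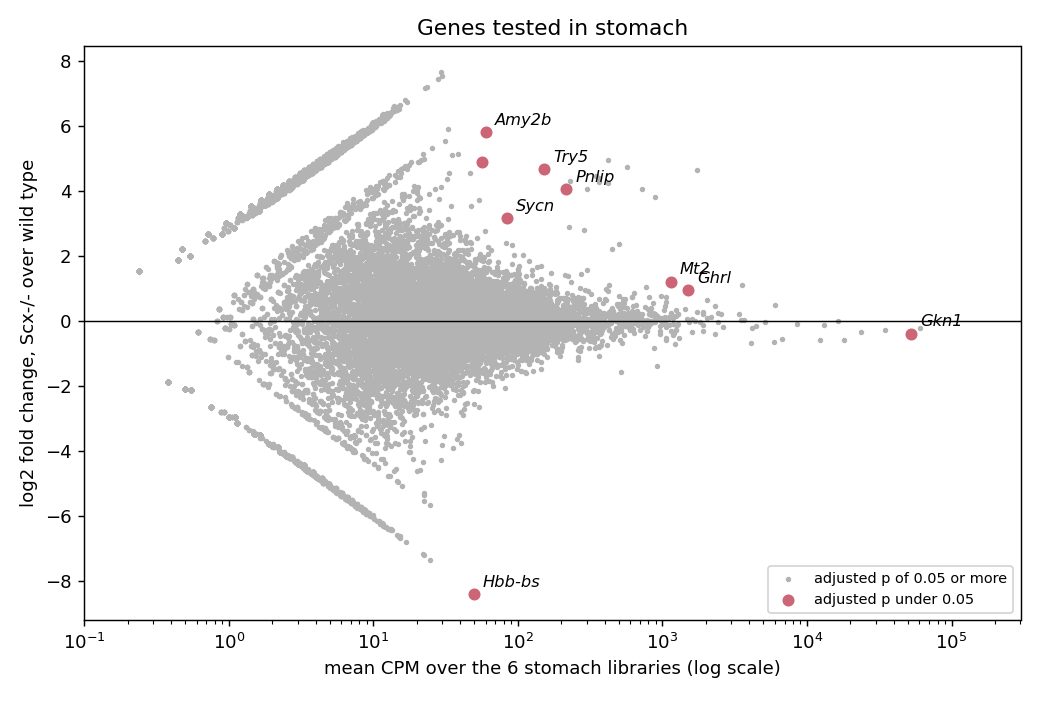
Each point is a gene tested in stomach, plotted by its mean CPM over the 6 libraries on a log axis and by its log2 fold change in Scx-/- over wild type. The 9 genes at an adjusted p under 0.05 are red, and those described in the text are named: Try5, Amy2b, Pnlip and Sycn lie above 3 on the vertical axis, Mt2 and Ghrl near 1, Gkn1 is slightly below 0 at the right edge, and Hbb-bs is at the bottom.

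Among the called genes, the largest rises were in genes of pancreatic acinar cells, which make and secrete the digestive enzymes. Try5, a trypsinogen gene (chr6:41311233-41316841, minus strand, GRCm38), had 20.4, 2.99 and 9.90 CPM in wild type and 527, 24.2 and 328 CPM in Scx-/- mice. The groups did not overlap, but Scx-/- replicate 2 was close to the highest wild-type library. The log2 fold change was 4.68 ± 0.60 (SE, adjusted p = 3.7e-09, edgeR).

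Pnlip, pancreatic lipase, had 25.0, 29.9 and 19.8 CPM against 830, 37.7 and 351 CPM, and rose by a log2 fold change of 4.07 ± 0.74 (adjusted p = 0.0393, edgeR). Again the genotypes did not overlap, and Scx-/- replicate 2 lay just above wild type.

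Amy2b, a locus of the pancreatic amylase family (chr3:113147656-113156727, minus strand) that the annotation marks as an unprocessed pseudogene, had 2 counts over the wild-type libraries and 193, 0 and 24 counts in the Scx-/- libraries. Its pooled ratio was 84.8, with a 95% exact counting interval of 23.2 to 704 (adjusted p = 0.000289, edgeR). Most of these counts were in Scx-/- replicate 1, without which the ratio was 19.0 (4.72 to 166). The ratio was 50.1 without wild-type replicate 1, and at least 40.6 against the floor of 3 counts without wild-type replicate 3, which held both wild-type counts. Sycn, syncollin of the zymogen granule, had 9.08, 26.9 and 16.5 CPM in wild type and 306, 0 and 149 CPM in Scx-/- mice (log2 fold change 3.17 ± 0.72, adjusted p = 0.0326, edgeR). Both genes had no count in Scx-/- replicate 2, so the genotypes overlapped. Amylase and trypsinogen genes belong to families of near-identical copies, and how reads were shared among copies is not stated.

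RefSeq windows upstream of the transcription start (GRCm38.p6) were matched for Amy2b, Pnlip and Sycn, with none for Try5. Acinar genes are known targets of PTF1, a factor that binds an E-box of the letters CACCTG together with a TC-box of the letters TTTCCCA. The Amy2b window is shown because it holds this E-box, in capitals, starting 132 bases before the transcription start, on the minus strand at chr3:113156728-113156977. It does not hold the TC-box letters on either strand, so the boxes are not together in these bases.
Amy2b: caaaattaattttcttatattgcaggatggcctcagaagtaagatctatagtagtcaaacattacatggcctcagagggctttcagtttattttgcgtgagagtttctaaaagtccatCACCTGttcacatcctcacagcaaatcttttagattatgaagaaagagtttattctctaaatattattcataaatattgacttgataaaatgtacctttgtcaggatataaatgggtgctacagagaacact

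The E-box was found on either strand in 17.2% of 32851 such windows of 250 bases and the TC-box in 6.82%. Of the 17 pancreatic list genes with a window, 9 held the E-box and 5 the TC-box. The windows of Pnlip and Sycn held no E-box match, which says only that these letters are not in those bases. The annotation used for gene positions puts the start of Pnlip 17867 bases upstream of the RefSeq start.

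As a list, the pancreatic acinar genes had 17 members with a count, of which 4 rose at an adjusted p under 0.05 (0.0474% of all genes tested) and 8 were higher at the study's thresholds (2.02% of all). All 17 had a positive fold change, with a median log2 fold change of 4.26. The list took 0.0835%, 0.0592% and 0.170% of the counts in wild-type libraries and 3.20%, 0.135% and 0.834% in Scx-/- libraries. Its share in Scx-/- replicate 2 thus lay within the wild-type range, and replicates 1 and 3 carried the difference.

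Other members were also highest in Scx-/- replicate 1 without reaching an adjusted p under 0.05. Ctrb1, chymotrypsinogen B, had 129, 65.8 and 228 CPM in wild type and 8255, 223 and 1454 CPM in Scx-/- mice (log2 fold change 4.66 ± 1.72, adjusted p = 0.797, edgeR). Cel, Cpb1 and Prss2, which encode a lipase, a carboxypeptidase and a trypsinogen, had log2 fold changes of 4.46, 4.97 and 4.41 at the same adjusted p of 0.797. Outside the list, Spink1, the pancreatic trypsin inhibitor, had no count in wild type and 88, 1 and 15 counts in the Scx-/- libraries, at least 27.1-fold higher against a floor of 3 counts over the group, and at least 8.46-fold without Scx-/- replicate 1 or 16.01-fold without wild-type replicate 1.

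Without Scx-/- replicate 1, Try5 was still called, with a log2 fold change of 3.79 (adjusted p = 0.0281, edgeR), and Pnlip was not, with 2.81 (adjusted p = 0.124, edgeR). Amy2b then had 3.94 and Sycn 1.94, both with an adjusted p of 0.885 (edgeR). Scx-/- replicate 2 by itself gave log2 fold changes over the wild-type libraries of 0.98 for Try5 and 0.46 for Pnlip, and it had no count of Amy2b or Sycn. These values describe 1 library, picked after its low pancreatic counts were seen, and are no test. Pancreatic list shares also varied widely between libraries of other abdominal organs, from 0.376% to 5.30% in intestine and from 0.00598% to 11.2% in spleen, where the genotypes overlapped. In kidney they were 0.0215% to 0.0499%, and in rectum 0.370% to 0.806% in wild type and 0.0254% to 0.467% in Scx-/- mice, overlapping in both. In liver they were 0.0366% to 0.0554% in wild type and 0.0713% to 0.102% in Scx-/- mice, and in cartilage 0.0613% to 0.143% and 0.348% to 0.396%, higher without overlap in both. In the libraries labelled adipose the list took 55.4% to 67.2%. The part of attached pancreas in the stomach values was not tested.

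**Figure D2:**
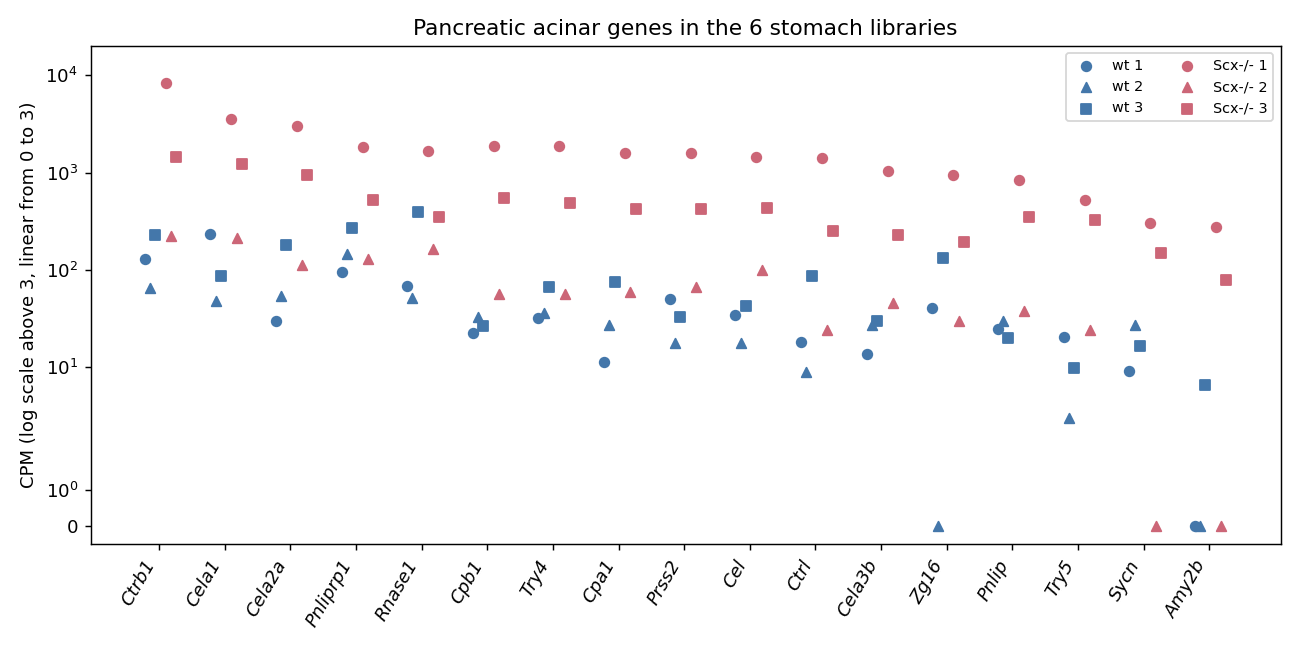
The vertical axis gives the CPM of pancreatic acinar genes (log scale above 3, linear below), with wild-type libraries in blue and Scx-/- libraries in red, and the marker shape gives the replicate number. For every gene shown, Scx-/- replicate 1 is the highest library, and Scx-/- replicate 2 lies near the wild-type libraries.

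Ghrl rose in the Scx-/- stomach. It encodes ghrelin, the appetite-stimulating hormone made by endocrine cells of the gastric glands (chr6:113716119-113719880, minus strand). Its level was 962, 909 and 1158 CPM in wild type and 1894, 2383 and 1691 CPM in Scx-/- mice. Every Scx-/- library was above every wild-type library, and the means were 1010 ± 131 and 1990 ± 356 CPM (SD, n = 3). The log2 fold change was 0.97 ± 0.22 (SE, adjusted p = 0.0239, edgeR). The adjusted p was 0.168 in DESeq2, and it was above 0.05 (edgeR) when either of replicates 1 and 2 of either genotype was left out. The log2 fold change lay between 0.82 and 1.05 under the 13 alternatives that kept at least 2 libraries of each genotype.

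Ghrl was scarce in the other tissues. Intestine had 11, 13 and 25 counts in its wild-type libraries and none in its Scx-/- libraries, the opposite sign to stomach and at least 2.99-fold lower against the floor of 3 counts. With one library left out this limit ran from 1.52-fold, without Scx-/- replicate 1, to 6.38-fold, without wild-type replicate 1, and it was 1.73-fold without wild-type replicate 3. The Scx-/- intestine libraries held 26500 to 54955 counts in all and the wild-type ones 93927 to 386890. Of the 14 other tissues compared, bladder, bone, cortex, heart, lung, muscle and spleen had no Ghrl count in any library. Apart from intestine, no library of the 14 exceeded 6 counts. Mean Ghrl was higher in Scx-/- mice in 3 of them, cartilage, kidney and liver, on counts too few to give a direction.

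Among the 16 gastric endocrine genes with a count, Ghrl was the one called, and no other member had an unadjusted p under 0.05. The list took 0.209%, 0.159% and 0.256% of the counts in wild-type libraries and 0.349%, 0.348% and 0.338% in Scx-/- libraries, without overlap. Ghrl carried this separation, since without it the list took 0.113%, 0.0676% and 0.140% in wild type and 0.159%, 0.109% and 0.169% in Scx-/- libraries, which overlapped. Its median log2 fold change was 0.75. Sst, somatostatin of the D cells, had 329, 446 and 805 CPM in wild type and 453, 589 and 432 CPM in Scx-/- mice. Chga, chromogranin A of endocrine granules, had 191, 144 and 366 CPM against 287, 334 and 402 CPM. The genotypes overlapped in both.

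Gast, the gastrin gene of antral G cells, ranged from 0 to 440 CPM in wild type and from 40.4 to 695 CPM in Scx-/- mice. It was high in wild-type replicate 1 and in Scx-/- replicates 1 and 3, and low in the other 3 libraries. Tff2, a trefoil factor of mucous neck and antral gland cells, was 8866, 3081 and 3046 CPM in wild type and 8234, 5673 and 7219 CPM in Scx-/- mice. The 3 libraries with the most Gast also had the most Tff2. How far the share of antrum in a sample moved the other values was not tested.

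Genes of surface mucous cells took a large share of the counts. Gkn1, gastrokine 1 (chr6:87345650-87350942, minus strand), a secreted protein of these cells, fell from 56866, 70278 and 50477 CPM in wild type to 47304, 40930 and 50024 CPM in Scx-/- mice. The highest Scx-/- value was just under the lowest wild-type value. It fell by 0.38 ± 0.09 on the log2 scale (SE, adjusted p = 0.0247, edgeR), a 1.30-fold lower level. The adjusted p was 0.0626 when scaled by library totals and 0.998 in DESeq2.

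Neighbours of Gkn1 in function had values of the same sign without passing the adjusted threshold. Psca, a surface antigen of gastric pit cells, had 7745, 9839 and 6360 CPM against 5848, 4710 and 5962 CPM, without overlap (log2 fold change −0.55 ± 0.14, adjusted p = 0.131, edgeR). Gkn2, gastrokine 2, had a log2 fold change of −0.34 ± 0.10 (adjusted p = 0.463, edgeR), and its Scx-/- replicate 3 overlapped wild type.

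Of the 12 surface mucous genes, 1 fell at an adjusted p under 0.05 (0.0135% of all genes tested) and 3 were lower at an unadjusted p under 0.05 (1.46% of all). The list took 15.3%, 19.8% and 13.96% of wild-type counts and 13.8%, 11.7% and 14.8% of Scx-/- counts, so the shares overlapped. Muc5ac, the gel-forming mucin of the gastric surface, ranged from 903 to 1822 CPM in wild type and from 498 to 1545 CPM in Scx-/- mice. Wild-type replicate 2 was the highest library for Gkn1, Gkn2, Psca, Tff1 and Muc5ac. Without this library the log2 fold change of Gkn1 was −0.24 (adjusted p = 0.873, edgeR).

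None of the 6 chief cell genes or the 15 parietal cell genes with a count was called. Pgc, progastricsin, had 32627, 40707 and 39827 CPM in wild type and 33615, 28814 and 31461 CPM in Scx-/- mice (log2 fold change −0.28 ± 0.10, adjusted p = 0.797, edgeR). Cym, the milk-clotting protease chymosin of the suckling stomach, varied widely within both genotypes, from 7033 to 33197 CPM in wild type and from 9085 to 24840 CPM in Scx-/- mice. Parietal genes took 1.45% to 1.74% of wild-type and 1.44% to 1.79% of Scx-/- counts.

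**Figure D3:**
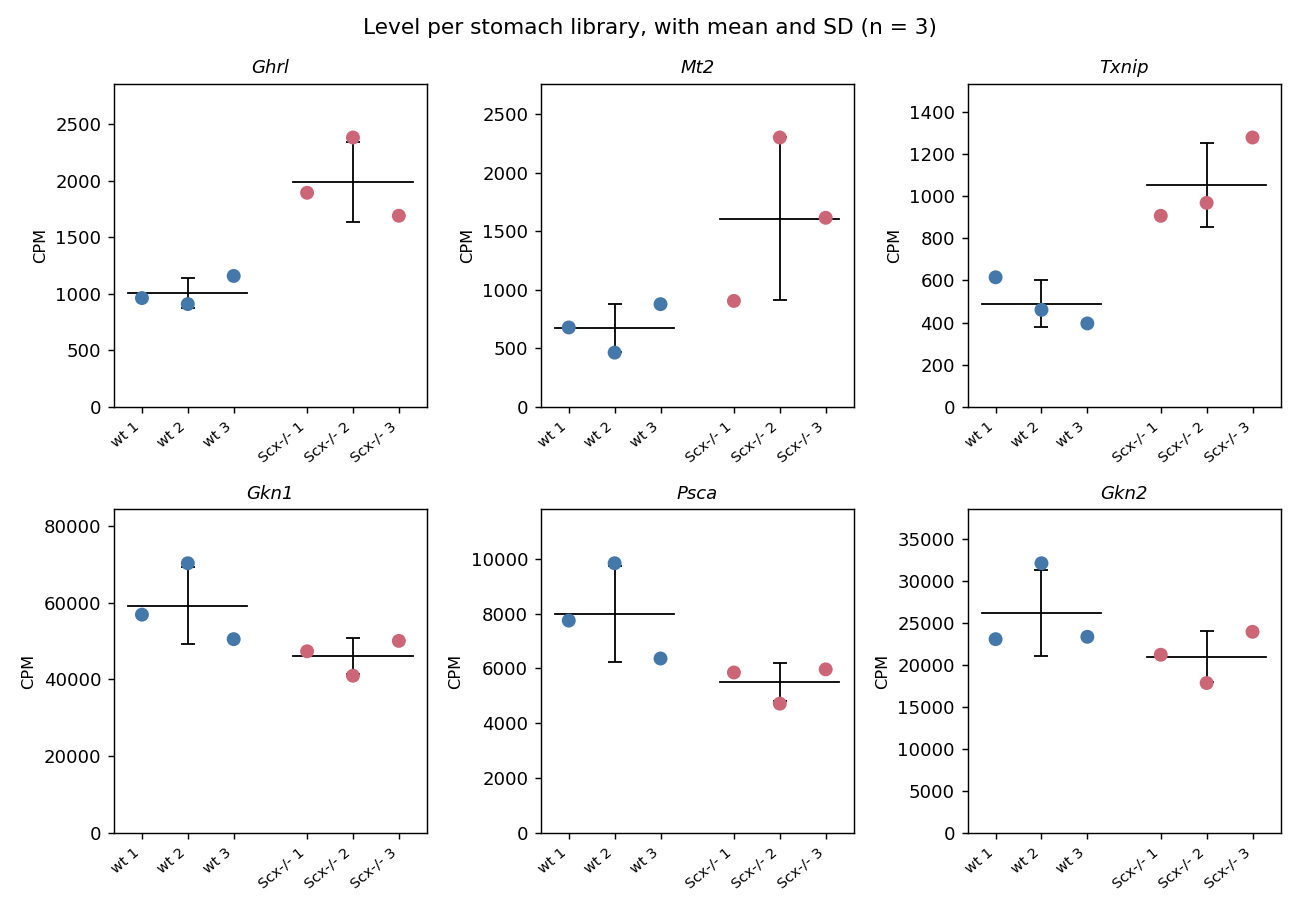
Each panel gives the CPM of one gene in the 6 stomach libraries, with a line at the mean of each genotype and a bar of 1 SD (n = 3). Ghrl, Mt2 and Txnip are higher in every Scx-/- library than in any wild-type library, Gkn1 and Psca are lower without overlap, and for Gkn2 the genotypes overlap.

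Mt2 was the gene outside the pancreatic group with the smallest adjusted p among those that rose. It encodes metallothionein 2, a small cysteine-rich protein that binds zinc and copper and is induced by metals and glucocorticoids. Its level was 679, 464 and 878 CPM in wild type and 906, 2303 and 1616 CPM in Scx-/- mice. The groups did not overlap, although Scx-/- replicate 1 exceeded the highest wild-type library by a small margin. The log2 fold change was 1.22 ± 0.24 (SE, adjusted p = 0.00113, edgeR). Its adjusted p was 0.253 in DESeq2, 0.363 when wild-type replicate 2 was left out, and 0.707 when Scx-/- replicate 2 was.

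Mt1, the adjacent gene with the same function, had 1662, 1373 and 1647 CPM in wild type and 1397, 3605 and 2551 CPM in Scx-/- mice. Scx-/- replicates 2 and 3 were high and replicate 1 lay within the wild-type range (log2 fold change 0.65 ± 0.20, adjusted p = 0.463, edgeR). Txnip, which encodes a thioredoxin-binding protein that restrains glucose uptake, had 615, 461 and 396 CPM in wild type and 907, 968 and 1279 CPM in Scx-/- mice. Its levels did not overlap, with a log2 fold change of 1.07 ± 0.27 and an adjusted p of 0.0818 (edgeR).

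Metallothionein promoters hold metal response elements, whose core letters are TGCGCNC or TGCACNC, where N is any base. The windows of 250 bases before the transcription start of Mt2 and Mt1 (RefSeq, GRCm38.p6, plus strand) are shown because both genes are described above. Whether their fold changes differ from each other was not tested. The windows end at the RefSeq starts, and the annotation used for gene positions puts the start of Mt2 46 bases further downstream and that of Mt1 7 bases upstream. The matches on either strand are in capitals.
Mt2: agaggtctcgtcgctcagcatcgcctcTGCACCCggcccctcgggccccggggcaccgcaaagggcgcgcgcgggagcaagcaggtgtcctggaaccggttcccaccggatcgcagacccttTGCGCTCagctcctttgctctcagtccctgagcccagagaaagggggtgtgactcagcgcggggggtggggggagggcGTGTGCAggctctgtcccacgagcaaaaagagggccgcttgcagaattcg
Mt1: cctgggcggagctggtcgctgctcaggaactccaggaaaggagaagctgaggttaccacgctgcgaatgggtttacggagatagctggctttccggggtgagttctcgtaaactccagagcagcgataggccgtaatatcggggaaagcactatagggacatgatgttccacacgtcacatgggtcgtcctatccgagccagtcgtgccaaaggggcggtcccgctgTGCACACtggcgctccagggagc

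The Mt2 window, at chr8:94172368-94172617, holds 3 matches, and the Mt1 window, at chr8:94178839-94179088, holds 1. Both counts depend on where the RefSeq start lies. For these genes, bases outside the windows were not searched, so the counts do not compare the promoters of Mt2 and Mt1. At least 1 match occurs in 21.4% of 32851 windows and 3 or more in 1.26%. A match describes letters only and was not tested for binding.

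Across 14 other tissues of the series, the vascular samples not included, mean Mt2 was higher in Scx-/- mice in 10, mean Mt1 in 13 and mean Txnip in 12. The genotypes did not overlap, with Scx-/- higher, in 6, 4 and 4 of these tissues. In a single tissue such a separation was reached by 0.912% to 6.92% of the genes with a count, and by 1.91% to 10.97% of those with a mean of at least 100 CPM. In a joint edgeR fit of 30 groups the stomach log2 fold change of Mt2 was 1.24, and the mean over the other tissues was 1.19. The difference of 0.06 had an adjusted p of 1 (edgeR). For Txnip the values were 1.08 and 0.89, with an adjusted p of 1 for the difference. In this fit 0 of 13645 genes differed between stomach and the other tissues at an adjusted p under 0.05, and 171 had an unadjusted p under 0.05. The latter were 2.01% of the 2633 genes with a count in every group and 1.07% of the 11012 at 0 in at least 1 group, so few genes reached a low p and the 0 does not show that effects were alike. The joint fit treats libraries as independent although same-numbered libraries of different tissues may come from one mouse, and it is not read here for single genes at 0 in a group, such as Ghrl (18 of 30 groups).

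The list of 12 glucocorticoid- and fasting-responsive genes had 1 member that rose at the adjusted threshold, Mt2 (0.0474% of all genes tested rose). It had 2 that were higher at the study's thresholds (2.02% of all), Mt2 and Txnip, and 11 with a positive fold change. The median log2 fold change was 0.59. Its share was 0.433%, 0.334% and 0.435% in wild type and 0.440%, 0.854% and 0.746% in Scx-/- mice, with no overlap but nearly equal values in wild-type replicate 3 and Scx-/- replicate 1. Without Mt2 the shares overlapped, at 0.287% to 0.365% in wild type and 0.3495% to 0.623% in Scx-/- mice.

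Squamous epithelial genes had mostly positive fold changes, and none passed the adjusted test. Of 22 keratin and junction genes with a count, 4 were higher at an unadjusted p under 0.05 (2.23% of all genes tested), 4 were higher without overlap (4.99% of all), 20 had a positive fold change, and the median log2 fold change was 0.73. Krt4, a keratin of internal squamous epithelia, had 429, 266 and 158 CPM in wild type and 590, 640 and 428 CPM in Scx-/- mice (log2 fold change 0.94 ± 0.32, adjusted p = 0.797, edgeR). Its partner Krt13 had a log2 fold change of 0.86 ± 0.28 (adjusted p = 0.651, edgeR). Perp, a desmosome protein, had 570, 434 and 353 CPM against 774, 890 and 665 CPM, without overlap.

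Cornification genes, which build the horny layer, had the same sign in all 20 members with a count. None passed the adjusted test, 6 were higher at an unadjusted p under 0.05 (again 2.23% of all genes tested), and the median log2 fold change was 0.78. Lor, loricrin of the cornified envelope, had 872, 245 and 690 CPM in wild type and 768.5, 1364 and 938 CPM in Scx-/- mice. Lce3c, a late cornified envelope gene, had 4, 0 and 0 counts in wild type and 30, 30 and 46 counts in Scx-/- libraries (log2 fold change 4.56 ± 1.18, adjusted p = 0.126, edgeR). Sprr2d, a small proline-rich envelope protein, had 0, 0 and 7 counts against 34, 67 and 22 (adjusted p = 0.219, edgeR), and Csta1, a cystatin, had a log2 fold change of 2.79 ± 0.87 (adjusted p = 0.476, edgeR).

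The share of counts of the keratin and junction list was 0.453%, 0.256% and 0.366% in wild type and 0.465%, 0.550% and 0.488% in Scx-/- mice. For cornification genes the shares were 0.385%, 0.194% and 0.364% against 0.430%, 0.681% and 0.414%. Neither list overlapped between genotypes. Wild-type replicate 2, the lowest library in both, was also the library with the highest share of surface mucous genes, and Scx-/- replicate 2, the highest in both, had the lowest mucous share. Wild-type replicate 2 also had the highest share of the ribosomal RNA genes Rnr1, Rnr2 and Rn18s-rs5, 6.41% against 2.22% to 3.62% in the other libraries, and the fewest genes with a count, 9125. The part of RNA quality in these shares was not tested. Whether these samples held different parts of forestomach and glandular stomach was not tested.

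**Figure D4:**
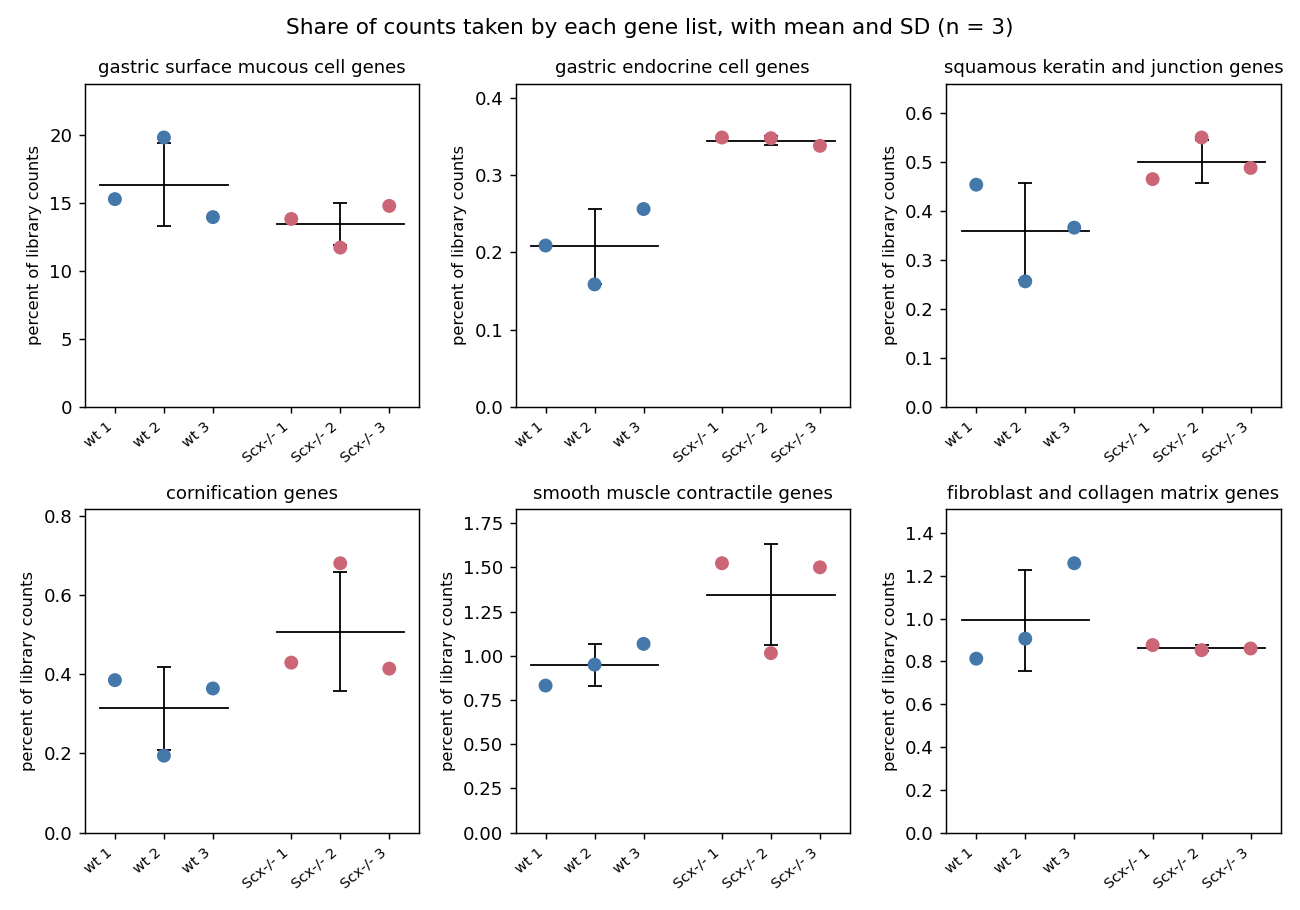
Each panel gives, for one gene list, the percent of library counts in the 6 stomach libraries, with a line at the mean of each genotype and a bar of 1 SD (n = 3). Endocrine, keratin and cornification shares do not overlap between genotypes, whereas surface mucous, smooth muscle and matrix shares do.

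Smooth muscle genes of the stomach wall were higher in 2 of the 3 Scx-/- libraries. Their list took 0.831%, 0.9498% and 1.07% of wild-type counts and 1.52%, 1.01% and 1.5002% of Scx-/- counts, so replicate 2 lay within the wild-type range. Of 18 members, 7 were higher at an unadjusted p under 0.05 (2.23% of all genes tested) and none passed the adjusted test, with a median log2 fold change of 0.52. Myh11, the smooth muscle myosin heavy chain, had 917, 305 and 921 CPM in wild type and 1196, 861 and 1662 CPM in Scx-/- mice (log2 fold change 0.79 ± 0.25, adjusted p = 0.47, edgeR).

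Tpm2, a tropomyosin, had 681, 814 and 868 CPM against 1564, 1011 and 1425 CPM, without overlap (log2 fold change 0.76 ± 0.24, adjusted p = 0.496, edgeR). Mylk, the kinase that activates smooth muscle myosin, did not overlap either, with a log2 fold change of 0.79 ± 0.30 (adjusted p = 0.797, edgeR). Acta2, the smooth muscle actin, had 1575, 1998 and 2267 CPM in wild type and 2777, 2117 and 3207 CPM in Scx-/- mice. Its log2 fold change was 0.46.

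Skeletal muscle transcripts were also present. Acta1, skeletal muscle actin, had 277, 59.8 and 79.2 CPM in wild type and 151, 229 and 837 CPM in Scx-/- mice (adjusted p = 0.227, edgeR), and its highest level was in Scx-/- replicate 3. The 14 skeletal muscle genes took 0.0171% to 0.0928% of wild-type and 0.0403% to 0.207% of Scx-/- counts.

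Because low counts rarely pass a test, these groups were also read among abundant genes. Of the 1539 genes with a mean of at least 100 CPM, 74 (4.81%) were higher and 47 (3.05%) lower at an unadjusted p under 0.05. Among list members at that level, 3 of 10 keratin and junction genes, 3 of 9 cornification genes and 6 of 12 smooth muscle genes were higher, and none of these was lower. The glucocorticoid and fasting list had 3 of 7 higher, and the surface mucous list had 3 of 10 lower.

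Connective tissue genes as a list showed no common direction. Of 24 fibroblast and collagen matrix genes, 10 had a positive and 14 a negative fold change, with a median log2 fold change of −0.10 and no member called. Of the 18 with a mean of at least 100 CPM, 3 were lower and 1 was higher at an unadjusted p under 0.05 (edgeR). Among all genes at that level the shares were 3.05% and 4.81%. Col1a2, a chain of type I collagen, had 1171, 1472 and 1908 CPM in wild type and 877, 1100.3 and 1282 CPM in Scx-/- mice (log2 fold change −0.50 ± 0.23, adjusted p = 0.797, edgeR). Col1a1, the other chain, had 1121, 1044 and 1888 CPM against 1018, 985 and 1026 CPM, without overlap (log2 fold change −0.42 ± 0.23, adjusted p = 0.797, edgeR). Sparc, the most abundant member, had a log2 fold change of −0.30 ± 0.20 and overlapped. Serpinh1, the collagen chaperone HSP47, had a log2 fold change of −0.76 ± 0.34, and Lum, the keratan sulfate proteoglycan lumican, of −1.07 ± 0.52. Dcn, the related proteoglycan decorin, had 359, 523 and 366 CPM against 600, 557 and 772 CPM, a log2 fold change of 0.60 ± 0.30. Serpinh1, Lum and Dcn each had an adjusted p of 0.797 (edgeR).

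**Figure D5:**
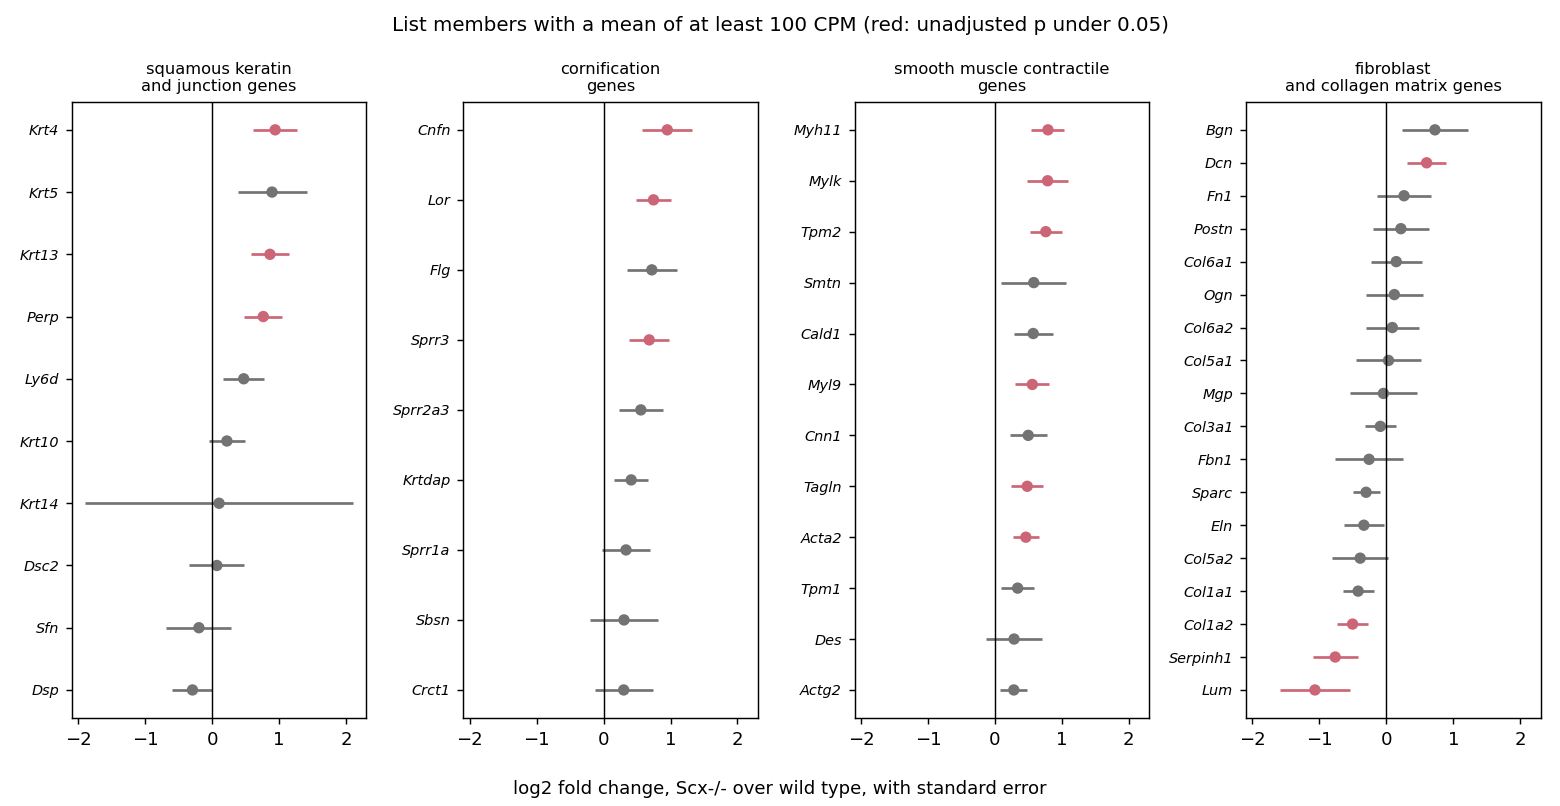
Points are the log2 fold changes of list members with a mean of at least 100 CPM, with bars of 1 standard error, and red marks an unadjusted p under 0.05. Every cornification and smooth muscle gene shown lies to the right of 0, whereas the matrix genes lie on both sides, from Lum at −1.07 upward. No gene shown passed the adjusted test.

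Among other genes that met the study's thresholds without overlap, Rpf2, a ribosome assembly factor, had no count in wild type and 18, 34 and 19 counts in Scx-/- libraries, at least 18.5-fold higher. Cadps2, a regulator of dense-core vesicle release, had 13, 23 and 15 counts in wild type and none in Scx-/- libraries, at least 21.8-fold lower. Rpl12, a ribosomal protein gene, had 23, 7 and 18 counts against 0, at least 20.5-fold lower, and ribosomal protein genes have processed copies elsewhere in the genome that can share reads. Spp1, osteopontin, had 277, 311 and 485 CPM in wild type and 126, 135 and 221 CPM in Scx-/- mice (log2 fold change −1.18 ± 0.39, adjusted p = 0.699, edgeR). None of these 4 passed the adjusted test. With one library left out at a time, the limits ranged from 10.9-fold to 28.01-fold for Rpf2, from 10.7-fold to 27.4-fold for Cadps2 and from 10.1-fold to 25.4-fold for Rpl12. They were lowest without wild-type replicate 1 for Rpf2 and without Scx-/- replicate 1 for the other two.

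Immune markers were rare in these samples. T cell genes had no count in 4 of the 6 libraries and at most 0.000857% of the counts. Cd74, the invariant chain of antigen presentation, had 56.7, 105 and 46.2 CPM in wild type and 28.6, 2.69 and 19.5 CPM in Scx-/- mice, without overlap and without passing the adjusted test. Cd74 made up most of the B cell and antigen presentation list, of which 4 of 12 members had a count. Its share was lower without overlap in Scx-/- libraries, and without Cd74 the list was at 0 in 4 of the 6 libraries and overlapped. The myeloid list was lower without overlap, at 0.0261% to 0.0352% in wild type and 0.0187% to 0.0247% in Scx-/- mice, and none of its 13 genes was called. Of the 34 lists with a gene in the table, shares were higher without overlap in 4 and lower in these 2. Among single genes, 4.99% were higher and 2.92% lower without overlap. The endocrine, glucocorticoid and fasting, and B cell shares overlapped once Ghrl, Mt2 and Cd74 were taken out of them.

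Housekeeping groups had medians close to that of all genes. The 74 nuclear-encoded respiratory chain genes had a median log2 fold change of −0.05 and the 70 cytosolic ribosomal protein genes of 0.15, and none of their members was called. Hsp90ab1, a heat shock protein of the cytosol, had 1198, 1173 and 1313 CPM in wild type and 891, 896 and 837 CPM in Scx-/- mice, without overlap (adjusted p = 0.797, edgeR). None of the 22 proliferation genes had an unadjusted p under 0.05.

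Hbb-bs, the other gene that fell, came from a single library. It encodes an adult beta-globin chain of the mouse haplotype called single, whereas Hbb-b1 belongs to the haplotype called diffuse. Hbb-bs had 1, 99 and 0 counts in the wild-type libraries and none in the Scx-/- libraries, at least 42.7-fold lower against the floor of 3 counts (21.0-fold without Scx-/- replicate 1), with an adjusted p of 0.000766 (edgeR). Hbb-b1 had 2428, 74 and 350 counts in wild type and 5565, 1645 and 654 in Scx-/- libraries, lowest in the library with Hbb-bs. Without wild-type replicate 2, the adjusted p of Hbb-bs was 0.873. In all 16 tissues wild-type replicate 2 held the most Hbb-bs counts, at least 35, against at most 15 in any of the 80 libraries with another number or genotype.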

How the data were processed

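Bulk RNA-seq of the 6 stomach libraries was analysed, and other tissues of the series entered for comparison. The deposited values are whole-number read counts per gene symbol, which the authors made by mapping to mm10 with Bowtie2 and counting with HTSeq, without normalization. The tool versions, the annotation and the strand setting are not stated, so overlapping and antisense genes cannot be separated. The study describes a 3′-enriched multiplexed method, whereas the series' design text names Smart-seq2, so whether a count depends on transcript length is not settled.

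Genes with a count in at least 1 of the 6 libraries (14770 of 41575) were tested with edgeR 4.0.16 in R 4.3.3 (TMM factors, estimateDisp, glmQLFit with robust estimation, glmQLFTest, Benjamini-Hochberg). SE is the log2 fold change divided by the square root of F. An exact permutation test of 3 against 3 libraries cannot go below p = 0.1, so none was run. DESeq2, which the study used, was an alternative (version 1.42.0 here). Others were RLE factors, library totals, filterByExpr, thinning every library to 303011 counts, the replicate number as a block, and each library left out. An Xist term and the omission of Scx-/- replicates 1 and 3, which leaves 1 Scx-/- library, were added after the data were seen. Intervals and floors cover counting error only.

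Genes named are Scx, up to 10 genes per direction by fold change among called, non-overlapping genes with a mean of at least 10 CPM, filled to 10 by unadjusted p from genes at the study's thresholds, list members with an adjusted p under 0.05, and the 3 most abundant members of each of 35 lists, not all of them printed. Amy2b, which is in no list, and Psca and other list members outside this rule were named after their values were seen. The members and lists were chosen with earlier results of these data known. One list, mitochondrially encoded genes, had 0 genes in the table. Replicates 1, 2 and 3 did not pair the genotypes (correlations of deviations between same numbers −0.007, 0.011 and −0.030). Gene positions come from a GRCm38 annotation. A called gene is not reported here. Scripts were tested on simulated data. Python 3.11.15 was used for summaries, with matplotlib 3.10.9.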

Additional observations from a re-analysis of the deposited data

How the results depend on the processing

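The number of genes at an adjusted p under 0.05, 9 as reported, was 10 with RLE factors, 8 with library totals and 9 after thinning. It was 0 with filterByExpr (157 DEGs at the study's thresholds against 489, with 209 genes at an unadjusted p under 0.05), 2 with DESeq2 (429 DEGs) and 15 with an Xist term (303 DEGs). Omitting Scx-/- replicates 1 and 3 leaves 1 Scx-/- library, chosen after its values were seen and assumed to vary like wild type. That setting describes the library and tests nothing, so no count of genes is given for it. The replicate block gave 9 calls, 4 of them shared, and 265 DEGs, but the replicate numbers did not pair the genotypes. Leaving out one library at a time gave 1 to 22 calls, the fewest without wild-type replicate 2 and the most without Scx-/- replicate 2, and 342 to 512 DEGs. The share of DEGs that were higher, 61.1%, was 48.0% without Scx-/- replicate 1.

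With Scx-/- replicates 1 and 3 left out, the log2 fold change changed sign for Amy2b (−2.83), Sycn (−5.74), Acta2 (−0.0027), Tagln (−0.22) and Atp4a (0.031), as values of that 1 library. It had no count of Amy2b or Sycn, so these 2 fitted values are no measure of a decrease. Of 13 alternatives that keep at least 2 libraries of each genotype, Try5 was called in 10, Mt2 and Amy2b in 9, Pnlip in 7, Ghrl and Hbb-bs in 6, Gkn1 in 5 and Sycn in 3. Try5, Amy2b, Sycn and Hbb-bs were not tested in 1 of these 13, filterByExpr, and Hbb-bs also got no adjusted p in DESeq2. Scx had 3 wild-type counts in stomach, and 0 without wild-type replicate 3. The causes were not tested. At 303011 to 700065 counts per library, genes of a few CPM rest on single counts, and a difference in Scx was not detectable.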

Other observations

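Hspa8, a constitutive heat shock protein of the cytosol, was chosen after its values were seen. It had 658, 8.97 and 792 CPM in the wild-type stomach libraries and 7.14, 716 and 3.25 CPM in the Scx-/- libraries. It split the libraries within each genotype, and the split was also not that of Xist, which was high in wild-type replicates 1 and 3 and in Scx-/- replicate 1. Wild-type replicates 1 and 3 and Scx-/- replicate 2 exceeded the other 3 libraries in Hspa8 in 14 of 16 tissues. The exceptions were bone, with 698 CPM in Scx-/- replicate 1 and 8.05 CPM in Scx-/- replicate 2, and cartilage, with 252, 24.3 and 612 CPM in the Scx-/- libraries. Together with Hbb-bs in wild-type replicate 2, these values belong to library numbers that recur across tissues, which the sample labels do not describe. They were not tested.

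Enterocyte genes were few in the stomach libraries, at 0.0203% to 0.0482% of wild-type counts and 0.0449% to 0.155% of Scx-/- counts. Reg1, a secreted protein of acinar and intestinal cells, had 54.5, 35.9 and 139 CPM in wild type and 1243 CPM in Scx-/- replicate 1, against 61.9 and 182 CPM in replicates 2 and 3. Hepatocyte genes took 0.168% to 0.229% of wild-type and 0.128% to 0.216% of Scx-/- counts. Adipocyte genes took 0.0673% to 0.117% and 0.0876% to 0.121%, and endothelial genes 0.0230% to 0.0542% and 0.0381% to 0.0532%.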
